A study of Mus musculus with 10 samples.

Results

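Genes that bring lymphocytes to the gut epithelium and hold them there were examined on 10 mouse arrays. They were the integrin subunits Itgae, Itgb7, Itga4, Itga1 and Itgal, the chemokine receptor Ccr9, the membrane protein Cd69 and the epithelial ligand Cdh1. They were chosen by gene symbol, and all 8 of 8 were found among the 22180 genes measured. Where a gene had several probe sets, the one with the highest mean was used. The first group, Flattop (4 arrays), came from sorted cells of intestinal crypts, labelled as expressing Flattop (Cfap126). The genotype of these mice was FltpT2AiCre crossed with Gt(ROSA)26mTmG, on a mixed background of C57BL/6J, CD1 and 129/SvJ. The second, Lgr5-high (6 arrays), came from intestinal stem cells sorted for high Lgr5 and GFP in C57BL/6J mice carrying Lgr5-EGFP-IRES-creERT2. All mice were 3 to 6 months old. Cre in the Flattop mice follows the Flattop gene, and a recombined reporter stays switched on in the descendants of a cell, so the label can mark past as well as present expression. The sources used here give neither the colour nor the gate of the Flattop sort. Genotype, strain and cell type all coincide with the groups and cannot be told apart. The labels do not say whether replicates were different animals, and the p-values reflect the spread among these arrays alone, part of which may be technical.

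Intraepithelial lymphocytes are T cells that sit between the cells of the gut lining. Integrins are pairs of an alpha and a beta chain on the cell surface. The pair of alpha 4 and beta 7 binds MAdCAM-1 on gut vessels and, with CCR9, which follows the chemokine CCL25 made by small intestinal epithelium, guides lymphocytes into the gut wall. Once there, transforming growth factor beta induces the alpha E chain (Itgae, CD103), which pairs with beta 7 and binds E-cadherin (Cdh1) on epithelial cells. CD69 blocks the exit receptor S1PR1, and the pair of alpha 1 and beta 1 binds collagen IV, so that both are associated with cells that stay.

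The deposited values are log2 intensities after robust multi-array averaging, so a difference of 1 is a doubling of intensity. The value table had no detection calls, and array medians lay between 4.56 and 4.77. The median of all values, 4.70, is used below only to say how bright a probe set was. Pearson correlations between arrays were 0.869 to 0.941 within Flattop and 0.854 to 0.915 within Lgr5-high. Sample titles carry numbers that fall into 2 ranges, 1 to 8 (2 Flattop and 3 Lgr5-high arrays) and 38 to 46 (2 Flattop and 3 Lgr5-high arrays). What these numbers mark is not stated.

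Of the 8 genes, Itgae alone rose past the threshold, an adjusted p of 0.05 in limma, a linear model fitted over all genes. Of all genes tested, 0.902% rose. Flattop and Lgr5-high arrays did not overlap for Itgae and Cd69, both higher in Flattop, as were 2.01% of all genes without overlap. At an unadjusted p under 0.05 there were 5 members, all higher in Flattop, where 5.98% of all genes were. The difference was positive for 7 of the 8, the exception being Cdh1, and for 38.45% of all genes. The median difference of the 8 members was 0.93, beside -0.06 over all genes tested.

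**Figure D1:**
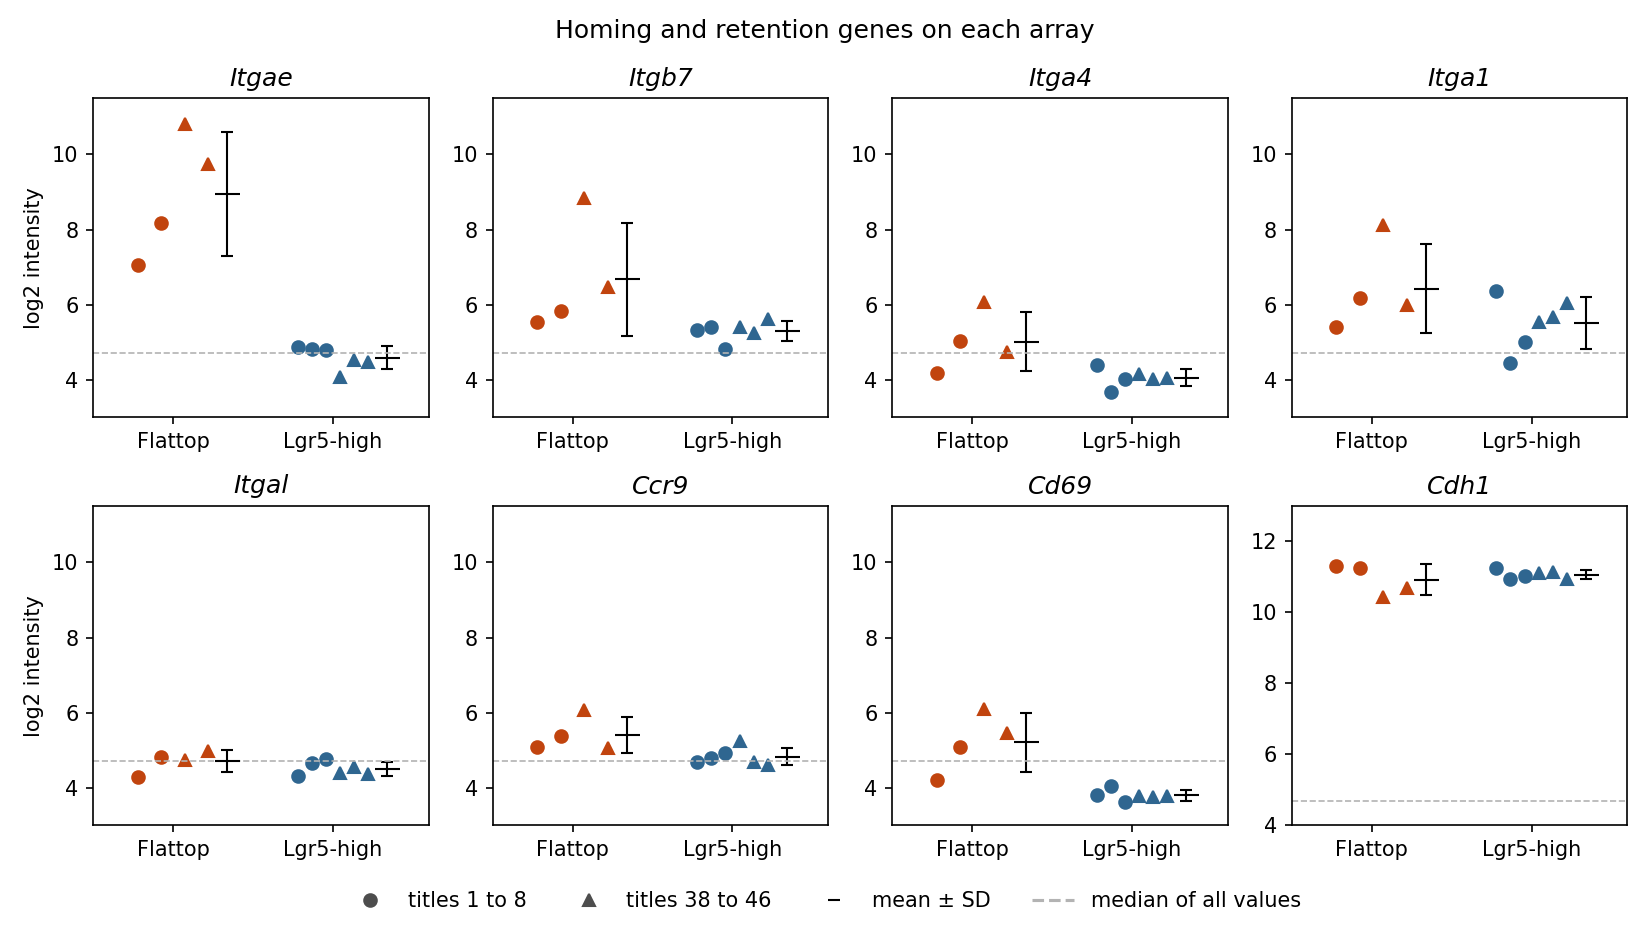
Log2 intensity (vertical axes) of each gene on 4 Flattop (orange) and 6 Lgr5-high (blue) arrays, with the group mean and SD at the right of the points. Circles are title numbers 1 to 8, triangles are 38 to 46, and the dashed line is the median of all values (4.70). The Flattop arrays stand clear of the Lgr5-high arrays for Itgae and, by less, for Cd69, and Cdh1 is bright in both groups.

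Itgae, the alpha E chain, read 7.05, 8.18, 10.8 and 9.74 in Flattop replicates 1 to 4, against a lowest value of 4.08, a median of 4.67 and a highest value of 4.88 in Lgr5-high arrays. Every Flattop array lay above every Lgr5-high array, and the nearest values of the 2 groups were more than 2 log2 units apart. The means were 8.94 ± 1.66 (n = 4) in Flattop and 4.59 ± 0.30 (n = 6) in Lgr5-high (means ± SD). Itgae rose by 4.35 (SE 0.59, 95% confidence interval 3.05 to 5.65, adjusted p = 0.00502), a 20.4-fold change in intensity, and ranked 72 by p among the 22180 genes. Only 3 of the 6 Lgr5-high values were above the median of all values, so the size of the fold is uncertain. In bulk samples such as these, fewer cells of a type and less RNA per cell cannot be told apart.

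Itgae differed by 2.79 within titles 1 to 8 (adjusted p = 0.0614, with 0.000725 to 0.128 over all alternatives) and by 5.91 within titles 38 to 46. The change in that difference was 3.13 (SE 0.54), with an adjusted p of 0.218 in limma. No member passed this interaction test over all genes, where 0.00902% of genes did. Without adjustment 3 members (Itgae, Cd69 and Cdh1) were under 0.05, beside 7.39% of all genes. Flattop replicates 3 and 4, which hold the higher title numbers, were the 2 brightest arrays for Itgae.

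Cd69, an early activation antigen that persists on tissue-resident lymphocytes, read 4.22, 5.08, 6.09 and 5.46 in Flattop replicates 1 to 4. In Lgr5-high arrays its lowest value was 3.61, its median 3.78 and its highest 4.06. The groups did not overlap, but Flattop replicate 1 lay only just above the Lgr5-high arrays. Its difference of 1.41 (SE 0.29, interval 0.77 to 2.05) just missed the threshold (adjusted p = 0.0559). It passed with arrays centred on their median (0.0267), after a further quantile normalisation (0.0427), with a trended and robust prior (0.0253), with the title range as a block (0.0465) and without Flattop replicate 1 (0.00338), and its adjusted p ran from 0.00338 to 0.558 over all alternatives. None of the 6 Lgr5-high values exceeded the median of all values, and 3 were under the lower quartile of their array.

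Itga1, the collagen-binding alpha 1 chain, read 5.40, 6.175, 8.13 and 6.00 in Flattop replicates 1 to 4, against a lowest value of 4.45, a median of 5.61 and a highest value of 6.37 in Lgr5-high arrays. The groups overlapped: only Flattop replicate 3 was above all Lgr5-high arrays. The difference of 0.91 (SE 0.52, interval -0.23 to 2.05) did not pass (adjusted p = 0.612). Without Flattop replicate 3 it was 0.34. Itgb1, the beta chain that pairs with alpha 1 and with alpha 4, averaged 7.62 ± 0.68 (n = 4) in Flattop and 7.79 ± 0.56 (n = 6) in Lgr5-high (means ± SD; difference -0.17, adjusted p = 0.892).

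Among the homing genes, none passed the threshold. Itgb7, the beta chain shared by the alpha 4 and alpha E pairs, read 5.54, 5.83, 8.85 and 6.46 in Flattop replicates 1 to 4, against a lowest value of 4.82, a median of 5.37 and a highest value of 5.63 in Lgr5-high arrays. Replicates 2, 3 and 4 of Flattop were above all Lgr5-high arrays, and replicate 3 was far above the rest. The difference was 1.37 (SE 0.53, interval 0.19 to 2.55, adjusted p = 0.427), and 0.64 without Flattop replicate 3.

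Itga4, the alpha 4 chain, read 4.19, 5.04, 6.06 and 4.745 in Flattop replicates 1 to 4. Its lowest value in Lgr5-high arrays was 3.67, the median 4.04 and the highest 4.39. Flattop replicate 1 fell inside the Lgr5-high range, and the other Flattop arrays were above it. The difference of 0.95 (SE 0.30, interval 0.29 to 1.62) did not pass (adjusted p = 0.280), and it was 0.60 without Flattop replicate 3. All 6 Lgr5-high values were under the median of all values.

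Ccr9 read 5.09, 5.39, 6.07 and 5.05 in Flattop replicates 1 to 4, against a lowest value of 4.61, a median of 4.74 and a highest value of 5.23 in Lgr5-high arrays. Flattop replicates 2 and 3 were above all Lgr5-high arrays, and the other 2 were not. Its difference was 0.58 (SE 0.21, interval 0.11 to 1.04, adjusted p = 0.381), and 0.35 without Flattop replicate 3. Its ligand Ccl25 averaged 9.70 ± 0.45 (n = 4) in Flattop and 9.58 ± 0.28 (n = 6) in Lgr5-high (means ± SD; difference 0.12, adjusted p = 0.871). Madcam1, the ligand of alpha 4 with beta 7, averaged 5.45 ± 0.09 (n = 4) in Flattop and 5.96 ± 0.26 (n = 6) in Lgr5-high (means ± SD). The Madcam1 difference of -0.52 did not pass (limma adjusted p = 0.221). The groups did not overlap for Madcam1, but the highest Flattop value (5.534) was only just below the lowest Lgr5-high value (5.545).

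The start regions of the gut homing genes, Itgb7, Itga4 and Ccr9, are shown. These genes encode the receptors that act together in entry into the gut wall. Both chains of the alpha 4 and beta 7 pair were brightest, among Flattop arrays, on replicate 3. That held for 6 of the 8 members and for 33.7% of all genes. RefSeq start regions (GRCm38.p6, from 250 bases before to 50 after an annotated start) were found for 4 of the 8 members, Itgb7, Itga4, Ccr9 and Itga1. Each is written 5′ to 3′ on the gene's strand, with capitals marking motif letters. Itgb7 is at chr15:102231886-102232185 (minus strand), Itga4 at chr2:79255176-79255475 (plus strand) and Ccr9 at chr9:123766961-123767260 (plus strand). The Itgb7 window lies inside the annotated span of the gene, which reaches base 102233405, so its outermost start was not searched. The windows of Itga4, Ccr9 and Itga1 cover the outermost start.
Itgb7: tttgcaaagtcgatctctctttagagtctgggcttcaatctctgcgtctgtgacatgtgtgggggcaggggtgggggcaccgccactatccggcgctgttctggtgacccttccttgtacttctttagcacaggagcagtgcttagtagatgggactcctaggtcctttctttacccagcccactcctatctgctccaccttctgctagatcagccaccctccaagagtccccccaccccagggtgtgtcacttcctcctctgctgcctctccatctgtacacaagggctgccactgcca
Itga4: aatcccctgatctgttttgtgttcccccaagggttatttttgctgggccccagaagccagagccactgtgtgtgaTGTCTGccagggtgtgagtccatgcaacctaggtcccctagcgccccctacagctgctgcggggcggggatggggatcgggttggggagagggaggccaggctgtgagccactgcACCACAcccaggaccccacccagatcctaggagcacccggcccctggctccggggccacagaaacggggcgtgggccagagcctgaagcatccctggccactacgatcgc
Ccr9: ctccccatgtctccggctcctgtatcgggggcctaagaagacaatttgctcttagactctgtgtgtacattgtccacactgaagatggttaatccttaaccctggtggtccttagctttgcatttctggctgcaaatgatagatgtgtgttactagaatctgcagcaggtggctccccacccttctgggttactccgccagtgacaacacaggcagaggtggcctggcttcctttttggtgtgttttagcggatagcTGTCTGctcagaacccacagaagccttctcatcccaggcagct
Both strands were searched for 4 motifs: TGTGGT (RUNX core), CCGGAAG (ETS core), CAGACA (SMAD element) and TATAAA (the box bound by TBP). Itga4 held the RUNX core once, on the reverse strand at bases 191 to 196, a motif found in 16.8% of 32851 start regions of this length. The SMAD element, in 21.0% of start regions, occurred on the reverse strand at bases 76 to 81 in Itga4 and 258 to 263 in Ccr9. None of these matches overlapped another. The ETS core (8.86% of start regions) and the TBP box (13.6%) were not among the letters of these windows. The windows of Itgb7 and Itga1 held none of the 4 motifs. Such matches describe letters, not binding. Guanine and cytosine made up 64.3% of the Itga4 window, 56.3% of that of Itgb7 and 51.3% of that of Ccr9, with a median of 52.7% over all start regions.

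Itgal, the alpha L chain of LFA-1, which binds ICAM-1 and serves adhesion of lymphocytes in general, read 4.295, 4.82, 4.73 and 4.99 in Flattop replicates 1 to 4. In Lgr5-high arrays the lowest value was 4.31, the median 4.46 and the highest 4.78. The groups overlapped and lay close to the median of all values. The difference of 0.20 (SE 0.16, interval -0.15 to 0.55) did not pass (adjusted p = 0.700), and it was -0.02 within titles 1 to 8. Omitting Flattop replicate 4 gave 0.11 for Itgal, and omitting Flattop replicate 1 gave 0.34. Itgb2, the beta chain that pairs with alpha L and with the myeloid alpha chains, did pass: it rose by 1.75 (SE 0.20, adjusted p = 0.00206), with 6.72 ± 0.45 (n = 4) in Flattop and 4.97 ± 0.23 (n = 6) in Lgr5-high (means ± SD). Itgb2 did not pass within titles 1 to 8 (adjusted p = 0.264) or with replicate number as a block (0.122). Whether Itgb2 and Itgal changed unequally was not tested.

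Cdh1, the E-cadherin that joins epithelial cells and is bound by the alpha E and beta 7 pair, was bright in every array. It read 11.32, 11.25, 10.42 and 10.69 in Flattop replicates 1 to 4, against a lowest value of 10.94, a median of 11.08 and a highest value of 11.24 in Lgr5-high arrays. Flattop replicates 1 and 2 were above all Lgr5-high arrays and replicates 3 and 4 were below all of them. The difference of -0.15 (SE 0.18, interval -0.55 to 0.25) did not pass (adjusted p = 0.805). Within titles 1 to 8 it was 0.215, while the arrays titled 38 to 46 gave -0.51. The change between the ranges, -0.725 (SE 0.24), did not pass (limma adjusted p = 0.568). A second Cdh1 probe set gave 0.13 (adjusted p = 0.797 among all probe sets), so the 2 probe sets disagreed in sign.

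**Figure D2:**
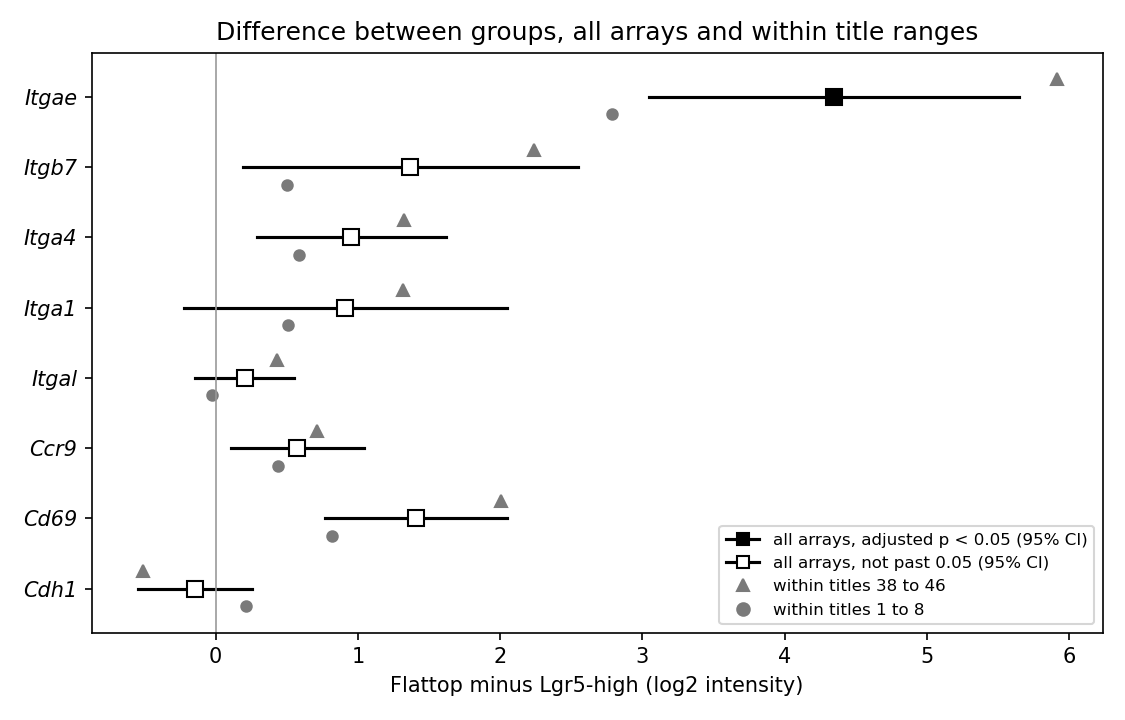
Difference Flattop minus Lgr5-high in log2 intensity (horizontal axis) for each gene over all arrays (squares with 95% confidence interval, filled where the adjusted p is under 0.05), and within titles 38 to 46 (triangles) and 1 to 8 (circles). Itgae stands apart at 4.35, and for the 7 genes other than Cdh1 the value within titles 38 to 46 lies to the right of that within titles 1 to 8. Each range holds only 2 Flattop arrays, and the share of all genes with this direction was not computed.

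Changes of 4 pairs of genes were compared within arrays by an exact permutation test (two-sided, 210 assignments, smallest possible p 0.00476, adjusted over the 4 pairs). Itgae minus its partner Itgb7 averaged 2.27 ± 0.75 (n = 4) in Flattop and -0.71 ± 0.47 (n = 6) in Lgr5-high (means ± SD). The change of Itgae exceeded that of Itgb7 by 2.98 (exact p = 0.00476, adjusted p = 0.00635). It exceeded that of Itga1 by 3.44 and that of its ligand Cdh1 by 4.50 (exact permutation, adjusted p = 0.00635 for each). In these 3 pairs all Flattop arrays were above all Lgr5-high arrays. The pairs were chosen with earlier results known, and the groups did not overlap for Itgae itself. These p-values are therefore not independent support for the Itgae difference. The changes of Itga4 and Itgb7 differed by -0.415 (exact p = 0.319, adjusted p = 0.319). Probe sets differ in how their intensity follows RNA level, so these tests compare changes in intensity.

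The genes varied more among Flattop than among Lgr5-high arrays. The SD was larger in Flattop for 8 of 8 members, beside 46.8% of all genes, and over 2 times larger for 6 of 8, beside 12.5%. Flattop replicate 3 was the brightest Flattop array for 6 members and the dimmest for Cdh1. Flattop replicate 1 was the dimmest for 6 members and the brightest for Cdh1. Over all genes, replicate 3 was the brightest Flattop array in 33.7% and replicate 1 the dimmest in 25.8%. Replicates 1, 2, 3 and 4 of Flattop were above all Lgr5-high arrays for 3, 7, 6 and 5 of the 8 members. The matching shares of all genes were not computed, so these counts are not read as a trait of the members.

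Marker genes of T cells were read beside the members. Of the 10 measured T cell and intraepithelial lymphocyte markers, 6 rose, among them the T cell receptor component Cd3g by 6.43 and the coreceptor chain Cd8a by 3.89, and the median difference was 4.08. The other 4 (Zap70, Thy1, Cd8b1 and Cd2) did not pass, with differences of 1.31, 0.98, 1.28 and -0.09. The list mean was 6.86, 7.43, 9.29 and 8.40 in Flattop replicates 1 to 4, and 4.40 to 4.81 in Lgr5-high arrays. Flattop arrays thus had the same order for this list mean as for Itgae. Of the 6 markers that rose, Cd3g and Cd8a did not have that order. Cd3g was lowest on Flattop replicate 2 (9.179), and Cd8a was highest on Flattop replicate 4 (10.519). The other markers that rose had it. By mean absolute distance over the 10 arrays, each gene centred on its own mean, the genes most like Itgae were Cd3d (0.198), Ptpn22 (0.316) and Rgs1 (0.374). Those most like Cd69 were St8sia4 (0.142), Gzmk (0.154) and Sipa1 (0.172). For the other members the nearest gene was Sntb1 (Itgb7), Gpr34 (Itga4), Igtp (Itga1), Epb42 (Itgal), Was (Ccr9) and Kpna2 (Cdh1). The part of lymphocyte RNA in the differences was not tested.

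Mucosal mast cells can carry alpha E and beta 7 as well. Of 9 mast cell markers, 3 rose: the proteases Mcpt1 by 5.08 and Mcpt2 by 3.22, and the receptor Kit by 1.002. Kit was already bright in Lgr5-high arrays (mean 7.42), where Mcpt1 and Mcpt2 were dim (means 3.31 and 3.41). Kit passed in 12 of 21 alternatives and did not pass without Flattop replicate 2, 3 or 4 (adjusted p up to 0.0781). The other 6 (Cpa3, Fcer1a, Mcpt4, Hdc, Tpsb2 and Ms4a2) did not pass, and Fcer1a was under the lower quartile on every array. Mast cell list means were 5.37, 5.18, 4.84 and 5.13 in Flattop replicates 1 to 4, and 3.86 to 4.24 in Lgr5-high arrays. The order of this list mean among Flattop arrays was the reverse of that for Itgae, with replicate 1 highest and replicate 3 lowest. Of the 3 markers that rose, only Mcpt2 had that order. Mcpt1 was highest on Flattop replicate 4 (8.575), and Kit was lowest on Flattop replicate 1 (8.276). The part of mast cells in the Itgae difference was not tested.

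Epithelial markers were bright in both groups. Of 8 epithelial markers none passed (limma; 1 higher at an unadjusted p under 0.05), and Epcam averaged 10.84 ± 0.06 (n = 4) in Flattop and 10.83 ± 0.12 (n = 6) in Lgr5-high (means ± SD). The epithelial list mean was 9.91, 9.64, 9.04 and 9.64 in Flattop replicates 1 to 4, and 9.035 to 9.491 in Lgr5-high arrays. Among Flattop arrays it was lowest on the array with the highest Itgae and the lowest Cdh1. Of 5 crypt base stem cell markers none passed (limma; 3 lower at an unadjusted p under 0.05), with list means of 7.72 to 9.10 in Flattop and 9.05 to 9.44 in Lgr5-high arrays. Lgr5 itself averaged 8.37 ± 1.42 (n = 4) in Flattop and 9.47 ± 0.33 (n = 6) in Lgr5-high (means ± SD).

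**Figure D3:**
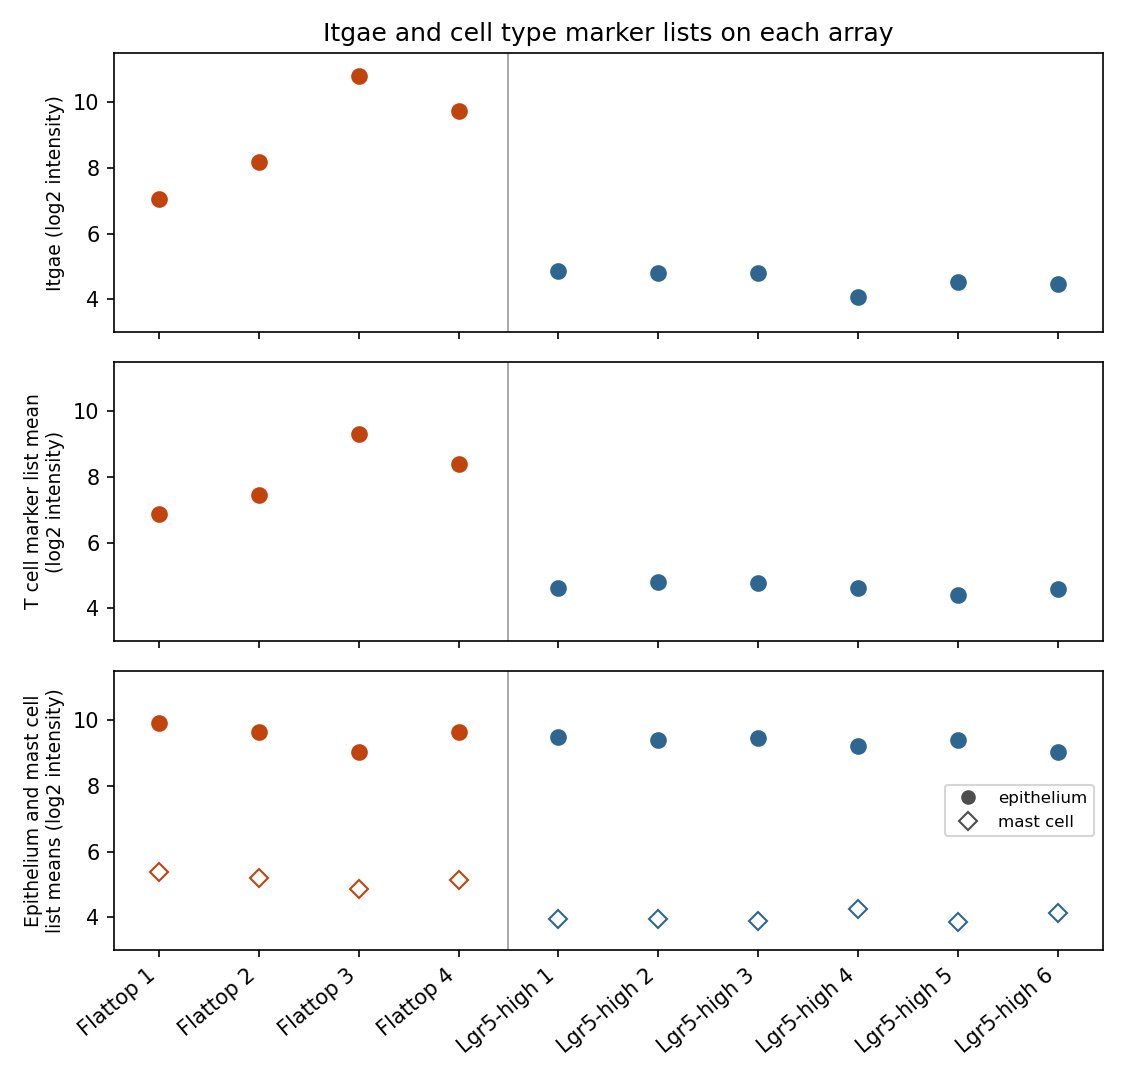
Log2 intensity of Itgae (top) and mean log2 intensity of the T cell (middle), epithelium and mast cell (bottom) marker lists on each Flattop (orange) and Lgr5-high (blue) array. Itgae and the T cell list peak together on Flattop replicate 3 (10.8 and 9.29), where the mast cell list is lowest among Flattop arrays (4.84).

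Other genes of the same steps were read from 7 further lists. Of 12 genes of integrin activation in lymphocytes, 1 rose, the Ras exchange factor Rasgrp1, by 1.97 (adjusted p = 0.0379), while 7 were higher at an unadjusted p under 0.05 and the list median was 0.98. Rasgrp1 lost its call without any one of 8 of the 10 arrays, all except Flattop replicates 1 and 3 (adjusted p up to 0.115). The adaptors Apbb1ip (1.95, adjusted p = 0.0555) and Fyb (2.49, adjusted p = 0.105) and the talin gene Tln1 (0.88, adjusted p = 0.204), which links integrins to actin, did not pass.

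Of 12 measured genes of the residency program beside the members, 1 rose, the chemokine receptor Cxcr6, by 2.05 (adjusted p = 0.0319), and 6 were higher at an unadjusted p under 0.05 (median 0.92). Cxcr6 lost its call without any one of 7 of the 10 arrays, all except Flattop replicates 1 and 4 and Lgr5-high replicate 4 (adjusted p up to 0.0750). The interleukin receptor chain Il2rb, which carries the interleukin 15 signal, differed by 3.09 (adjusted p = 0.0729), the nucleotide receptor P2rx7 by 1.995 (adjusted p = 0.0707) and the transcription factor Runx3 by 1.33 (adjusted p = 0.0930). Of 5 measured genes of recirculation and egress none passed (limma; without adjustment 1 was lower at p under 0.05; median -0.16). S1pr1, the exit receptor that CD69 opposes, was at 4.72 ± 0.25 (n = 4) in Flattop and 4.90 ± 0.23 (n = 6) in Lgr5-high (means ± SD). The lymph node homing receptor Ccr7 differed by -0.62 (adjusted p = 0.265).

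Of 10 integrin partner chains 1 rose, Itgb2 (list median 0.17). None of 9 ligands of the members passed (limma; without adjustment 1, Madcam1, was lower at p under 0.05; median -0.19). Among them, Vcam1, which alpha 4 with beta 1 binds, differed by -0.13 and Icam1, the ligand of LFA-1, by -0.11. Of 11 genes listed for the adherens junction, only Cdhr5 rose, by 1.42 (adjusted p = 0.00858, list median 0.01). Cdhr5 is a protocadherin of the brush border, and no other gene of this list passed. Cdhr5 did not pass within titles 1 to 8 (adjusted p = 0.183), within titles 38 to 46 (0.119) or with replicate number as a block (0.188). The catenin Ctnna1, which ties E-cadherin to actin, differed by 0.49 (adjusted p = 0.534).

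**Figure D4:**
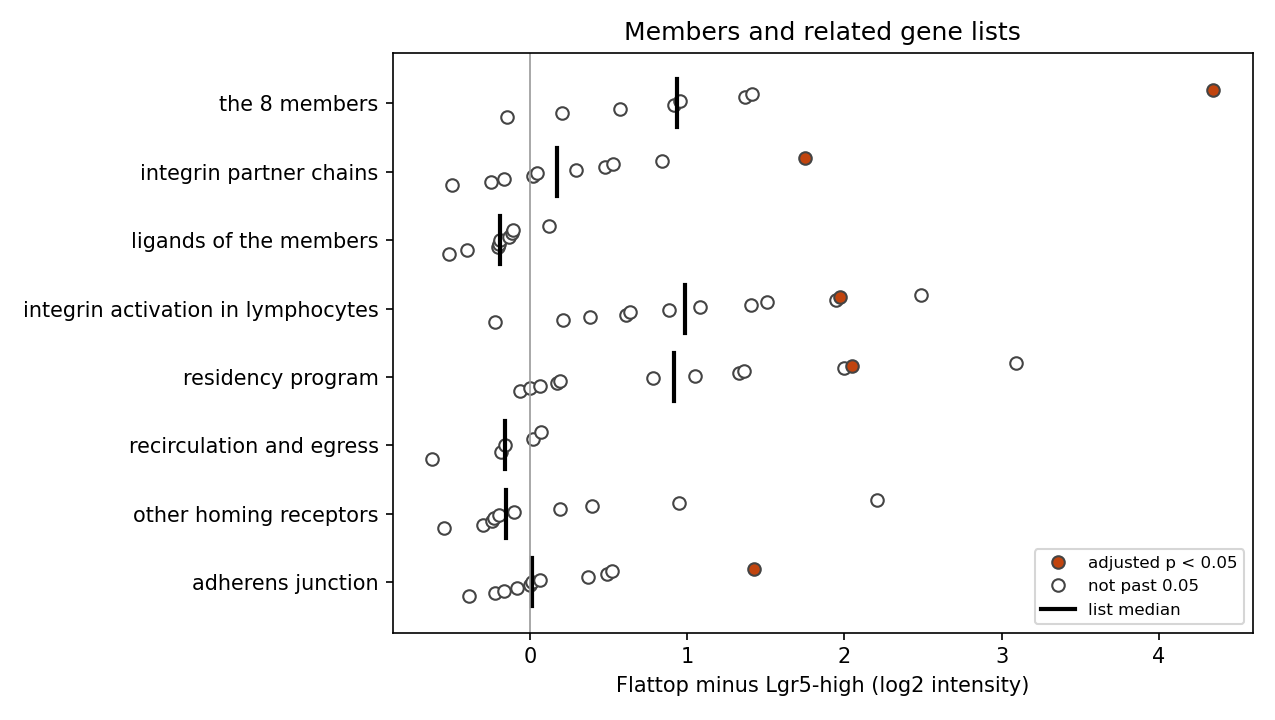
Difference Flattop minus Lgr5-high in log2 intensity (horizontal axis) for the 8 members and for each gene of 7 related lists (rows). Filled points passed an adjusted p of 0.05 and bars are list medians, which are 0.93 for the members, 0.98 for integrin activation, 0.92 for the residency program and between -0.19 and 0.17 for the others.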

How the data were processed

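Gene expression was measured on 10 arrays (4 Flattop, 6 Lgr5-high). The authors deposited log2 intensities, 1 value per probe set, made by RMA (background correction, normalisation between arrays and summary of probes) with oligo 1.38.0, per the submitters' processing notes. The genome build is not given in the sources used. That the scale is log2 was taken from these notes and from the values, which ran from 2.01 to 14.1 with none missing. Scanner files were not used here. Precision is limited by the number of arrays.

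Of 41345 probe sets, 23521 had 1 gene symbol in the platform annotation, 1814 several and 16010 none listed. One probe set per gene, the one of highest mean, gave 22180 genes, of which 1082 had several probe sets. Dim probe sets were kept. Groups were compared as Flattop minus Lgr5-high with limma 3.58.1 (lmFit, eBayes) in R 4.3.3, two-sided, at an adjusted p of 0.05 (Benjamini-Hochberg, over all genes). Title number range and its interaction with group were tested in the same way. The method was tested on simulated data. Pairs of genes were compared by exact permutation over arrays. Members, lists, motifs and tests were chosen with earlier results of these data known. Named genes were the members, their binding partners, up to 4 genes per list with the smallest p, and the 3 genes nearest to a member; Cd8b1, S1pr1, Epcam, Lgr5 and other T and mast cell markers were named outside this rule, after their values were seen. Alternatives were other normalisations, filters, priors, array weights, blocks, title ranges, probe set choices and each array left out. For other named genes that passed, apart from Ptpn22 and Rgs1, the same alternatives were added after seeing the data. Use of all probe sets and the 0.1 threshold were left out for these genes. Listed genes with no value here were not used. Start regions came from RefSeq (GRCm38.p6), matched by gene number. Plots were drawn with matplotlib 3.10.9.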

Additional observations from a re-analysis of the deposited data

Results flagged for a closer look

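In 88 sets of arrays (each member and each other gene given a value, in each group), the highest or lowest array was compared with the rest of its group by Dixon's criterion, which chance passes in about 1 of 20 sets, and 4 sets passed. No member was among them. Flattop replicate 3 stood apart for Cd8b1, the beta chain of the CD8 coreceptor, at 9.03, where the other Flattop arrays read 4.31, 4.58 and 4.604. The same array stood apart for the ligands Vcam1, at 4.25, and Ccl25, at 9.02. Lgr5-high replicate 3 stood apart for the matrix ligand Fn1, at 7.03.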

How the results depend on the processing

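Itgae was higher in Flattop in all 22 alternatives (2.79 to 5.91) and passed the threshold in 20. It did not pass within titles 1 to 8 (adjusted p = 0.0614) or with replicate number as a block (4.30, adjusted p = 0.128). Both used fewer arrays, as did the fit within titles 38 to 46, where Itgae passed (limma adjusted p = 0.00892). Leaving out each array in turn gave 3.73 to 4.98 for Itgae (adjusted p 0.000725 to 0.0217). The number of members past the threshold was 2, Itgae and Cd69, with a further quantile normalisation, arrays centred on their median, a trended and robust prior, the title range block or a threshold of 0.1. It was 0 with the replicate block and within titles 1 to 8, and 1 to 2 when single arrays were left out. Over all genes, 203 passed, against 57 with the replicate block, 77 within titles 1 to 8, 85 within titles 38 to 46, 311 at a threshold of 0.1 and 123 to 215 without single arrays (123 without Flattop replicate 2, 132 without Lgr5-high replicate 4). Correlations of deviations between same-numbered arrays were 0.297, -0.206, -0.01 and 0.029. Flattop replicate 2 gave 0.298 with Lgr5-high replicate 1, so a positive value was not particular to the same number. The labels state no pairing, and the numbers were not taken to pair arrays. Directions that turned were those of Itgal within titles 1 to 8 (-0.023), Cdh1 within titles 1 to 8 (0.215) and without Flattop replicate 3 (0.019), and Itga4 minus Itgb7 within titles 1 to 8 (0.083); the cause was not tested. Without single arrays the Cdh1 difference ran between -0.28 and 0.019. Within titles 1 to 8 Itgae exceeded Itgb7 by 2.28, Itga1 by 2.27 and Cdh1 by 2.57, and within titles 38 to 46 by 3.68, 4.599 and 6.42, where 2 arrays against 3 cannot give an exact p under 0.1. Itga4, Itgal and Cd69 were among the dim genes that the filter removed. Of the other named genes that passed, Ptpn22 and Rgs1 were not run through the alternatives. The rest kept their direction in 21 alternatives chosen after seeing the data. Cd3g, Cd7, Cd8a and Mcpt1 passed in all 21, and Ptprc and Cd3d in 20 each. Itgb2 and Mcpt2 passed in 19 each, Cdhr5 in 18, Kit in 12, and Rasgrp1 and Cxcr6 in 9 each. Dim intensities in Lgr5-high arrays limit the sizes of the Itgae, Itga4 and Cd69 differences.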

Other observations

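Of 10 other homing receptors measured none passed (limma; without adjustment 2 were higher and 1 lower at p under 0.05; median -0.15). Gpr18, a receptor expressed by intraepithelial lymphocytes in mice, had 6.27, 8.01, 9.77 and 7.74 in Flattop replicates 1 to 4 and differed by 2.21 (SE 0.67, adjusted p = 0.252). Gpr55 differed by 0.95 (adjusted p = 0.324) and Cx3cr1, a receptor of macrophages and some lymphocytes, by -0.55 (adjusted p = 0.348).

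Markers of other cell types that carry integrins did not pass in either direction in limma: 0 of 9 macrophage and dendritic cell genes (without adjustment, 1 higher and 3 lower at p under 0.05), 0 of 6 B and plasma cell genes (1 higher), 0 of 6 neutrophil and eosinophil genes (1 higher), 0 of 6 natural killer and innate lymphoid genes (1 higher), 0 of 5 endothelial genes (1 lower) and 0 of 7 fibroblast and smooth muscle genes (0 in either direction). Their list medians lay between -0.26 and -0.07.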
